A study of Macaca mulatta with 28 samples.

Results

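Tachykinin, neurotensin, CART, PACAP and PTHrP genes were followed in a dissected brain block that contained the central nucleus of the amygdala (CeA), from 28 male rhesus macaques (Macaca mulatta) that drank ethanol. The set was taken from a fixed list of 10 gene symbols, of which 9 had a row among the 15521 genes of the table and 9 passed the filter on low values. These were TAC1, TAC3, NTS, TACR1, TACR3, NTSR1, CARTPT, ADCYAP1 and PTHLH. NTSR2 was not analysed here. Total RNA had been sequenced as stranded, ribosomal RNA-depleted libraries, 1 per animal.

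All animals had been induced to drink over about 90 days and then had 4% (w/v) ethanol for 22 h a day for more than 12 months, so that no ethanol-free animal was included. The study sorted them by intake into low drinkers (LD, n = 10), binge drinkers (BD, n = 5), heavy drinkers (HD, n = 7) and very heavy drinkers (VHD, n = 6). The BD definition asked for 2 g/kg or more on 55% or more of days, with a blood ethanol of 80 mg/dl at least yearly. For HD the bar was 3 g/kg or more on 20% or more of days. For VHD it was an average above 3 g/kg, with more than 4 g/kg drunk on 10% or more of days. Animals that fitted none of these were LD. The animals came from 4 cohorts, with average ages at induction of 8.24 years in cohort 4 (4 LD, 3 BD, 1 HD), 5.63 years in cohort 5 (3 HD, 4 VHD), 4.18 years in cohort 7a (3 LD, 1 BD, 2 HD, 2 VHD) and 5.69 years in cohort 7b (3 LD, 1 BD, 1 HD). After open access the average ages were 9.98 years in cohort 4, 7.15 in cohort 5, 5.7 in cohort 7a and 7.18 in cohort 7b. HD and VHD together are called heavy here (n = 13), and LD and BD together low (n = 15). Cohort 5 had no low drinker, so that heavy and low drinkers met in cohorts 4, 7a and 7b, and VHD met LD only in cohort 7a.

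Neuropeptides are cut from larger precursors, stored in dense core vesicles and act on G protein-coupled receptors. TAC1 encodes the precursor of neurokinin A and of substance P, whose preferred receptor is NK1 (TACR1). TAC3 encodes the precursor of neurokinin B, whose preferred receptor is NK3 (TACR3). Neurotensin (NTS) signals through NTSR1, CARTPT encodes the cocaine- and amphetamine-regulated transcript peptides, ADCYAP1 encodes PACAP, and PTHLH encodes the parathyroid hormone-related protein. In mice, neurons of the CeA that make neurotensin have been linked to ethanol drinking, and PACAP reaches the CeA in fibres from the parabrachial nucleus.

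Depth ranged from 1910514 to 25928489 reads over exons, with a median of 16444833, and the 3 shallowest libraries, BD replicate 1, LD replicate 1 and HD replicate 1, were all of cohort 4. Values are normalized reads, the reads over a gene's exons scaled to a common upper quartile per library, and 3 reads were worth 1.82 to 24.1 normalized reads depending on the library. Of 10 genes listed as central amygdala markers 9 were in the table, all past the filter and none at 0 in all libraries. PRKCD, a kinase of a class of CeA neurons, ranged from 174 to 917 normalized reads. Markers of neighbouring tissue varied more: the summed level of 7 basal forebrain cholinergic genes ranged from 54.2 to 22782 normalized reads, and TBR1, a transcription factor of cortical excitatory neurons, from 0 to 694. In bulk tissue of this kind fewer cells of a type and less RNA per cell cannot be told apart.

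Compared per kilobase of exon, the precursor genes were the most abundant of the set. TAC1 had a median of 821 normalized reads per kb, TAC3 622, NTS 543 and CARTPT 520. PTHLH followed at 81.0 and ADCYAP1 at 78.6, and the receptor genes were lowest, with 50.4 for TACR1, 22.3 for TACR3 and 10.3 for NTSR1. The 4 most abundant were not ordered beyond their spread: TAC1 was above TAC3 in 20 of 28 animals, TAC3 above NTS in 12 and NTS above CARTPT in 14. CARTPT was above PTHLH in 28 of 28 animals. PTHLH was above ADCYAP1 in 18 animals, ADCYAP1 above TACR1 in 16, TACR1 above TACR3 in 26 and TACR3 above NTSR1 in 23.

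The animals differed widely in these genes. On the log2 scale the SD between animals was 1.68 for TAC3 and 1.60 for ADCYAP1, at the 99.4 and 99.3 percentile of the 13022 tested genes, whose median SD was 0.27. NTS, with an SD of 1.25, and NTSR1, with 1.18, stood at the 98.0 and 97.7 percentile. PTHLH varied least, with an SD of 0.43 at the 75.3 percentile.

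The 9 genes were spread over 7 chromosomes as the exon table names them, and no exon of another gene overlapped theirs. TAC1 lay on chromosome 7 (122881770 to 122890230, 6 exons). TAC3 (55264693 to 55271574, 7 exons), NTS (84550790 to 84557989, 4 exons) and PTHLH (28932315 to 28944085, 3 exons) lay apart from each other on chromosome 12. TACR1 lay on chromosome 2a (76109558 to 76262347, 5 exons), TACR3 on chromosome 4 (102390540 to 102534077, 5 exons) and NTSR1 on chromosome 15 (1579771 to 1636201, 4 exons). CARTPT lay on chromosome 5 (68058802 to 68060593, 3 exons) and ADCYAP1 on chromosome 18 (8597113 to 8603880, 4 exons). The genome build is not given in the sources used here.

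Drinking categories overlapped in every gene of the set. TAC1 had a lowest, median and highest value of 422, 1133 and 2059 normalized reads in LD, values of 307, 673, 812, 1083 and 1126 in BD, 219, 878 and 1549 in HD, and 574, 910 and 1393 in VHD. HD replicate 5, of cohort 7a, had the lowest TAC1 of all animals and LD replicate 8, of cohort 7b, the highest. TAC3 ranged 42.2-fold over the animals. Its lowest, median and highest values were 50.2, 537 and 1421 in LD, its values in BD were 33.6, 89.1, 192, 193 and 679, and it had 45.2, 731 and 944 in HD and 71.6, 398 and 920 in VHD. In BD the animal of cohort 7b stood well above the other 4.

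NTS had 155, 953 and 1273 normalized reads as lowest, median and highest in LD, values of 88.1, 363, 962, 1058 and 1690 in BD, 64.9, 691 and 1114 in HD, and 122, 511 and 1131 in VHD. The lowest values in each category were well below the rest, and the medians of HD and VHD lay inside the ranges of LD and BD.

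Among the receptors, TACR1 had 163, 255 and 492.8 normalized reads in LD, values of 176, 254, 260, 288 and 554 in BD, 166, 221 and 293 in HD, and 222, 511 and 945 in VHD. In 3 VHD animals, 2 of cohort 5 and 1 of cohort 7a, TACR1 exceeded every animal of the other categories. TACR3 had 21.2, 56.0 and 76.3 in LD, values of 5.38, 16.03, 25.4, 38.7 and 39.3 in BD, 5.75, 39.0 and 81.0 in HD, and 28.99, 49.9 and 89.6 in VHD. NTSR1 had 14.9, 69.3 and 183 in LD, values of 7.40, 24.1, 35.2, 53.7 and 186 in BD, 15.8, 77.8 and 155 in HD, and 15.1, 31.5 and 69.7 in VHD. Both TACR3 and NTSR1 rested on few reads in some libraries, 2 reads for TACR3 and 3 for NTSR1 at the lowest.

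CARTPT had 134, 356 and 827 normalized reads in LD, values of 283, 305, 655, 828.5 and 944 in BD, 258, 417 and 764 in HD, and 351, 795 and 957 in VHD. ADCYAP1 ranged 151-fold, with 4.91, 205 and 669 in LD, values of 49.0, 302, 345, 353 and 546 in BD, 52.0, 222 and 742 in HD, and 58.6, 228 and 565 in VHD. Its lowest value, in LD replicate 8, rested on 4 reads, and the fold changes of ADCYAP1 given further on carry wide errors. PTHLH stayed between 46.1 and 141 normalized reads in all 28 animals.

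**Figure D1:**
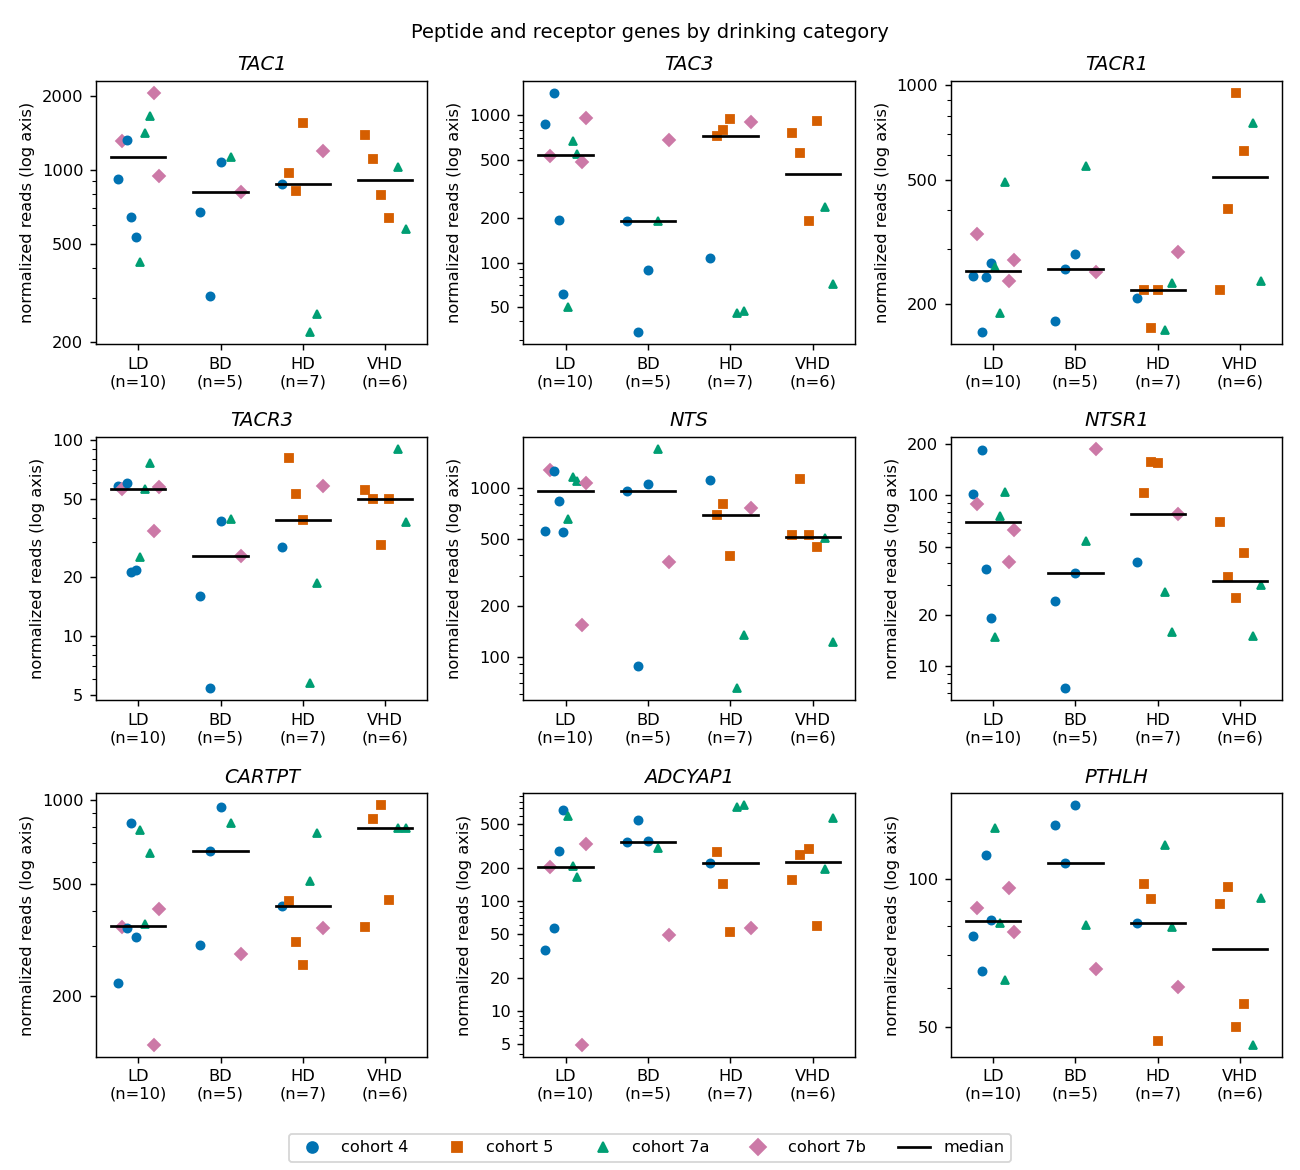
Normalized reads of the 9 genes (log axes) in each animal by drinking category from LD to VHD, with symbols for the 4 cohorts and a line at the category median. The categories overlap in every panel, and the VHD medians are 511 for TACR1 and 31.5 for NTSR1, against LD medians of 255 and 69.3.

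Heavy against low drinking was compared with cohort as a term. None of the 9 genes passed an adjusted p of 0.05 in limma, and none of the 13022 tested genes did (0%), while 544 genes (4.18%) had an unadjusted p under 0.05. The same comparison gave 0 calls by edgeR and 1 by DESeq2 on the recovered reads, which was not a gene of the set. NTS had the largest fitted difference: it averaged 555 ± 344 normalized reads in heavy drinkers (SD, n = 13) and 851 ± 449 in low drinkers (SD, n = 15). The fitted log2 difference was -1.21 ± 0.59 (SE), a fold of 0.431 with a 95% interval of 0.185 to 1.004, and limma's p was 0.0510 before and 0.998 after adjustment. In 8 of 13 heavy drinkers NTS was below the low drinkers' mean log2 value. The means and this count include the 7 heavy drinkers of cohort 5, which inform the SE and leave the fitted fold as it is.

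The tachykinin precursors had fitted folds of 0.652 (95% interval 0.391 to 1.09) for TAC1 and 0.508 (0.200 to 1.29) for TAC3. The receptors had 0.907 (0.571 to 1.44) for TACR1, 0.813 (0.422 to 1.57) for TACR3 and 0.639 (0.295 to 1.38) for NTSR1. CARTPT had 1.11 (0.705 to 1.74), ADCYAP1 1.31 (0.487 to 3.53) and PTHLH 0.866 (0.639 to 1.17). All 9 had an adjusted p of 0.998 in limma. In 7 of the 9 the fitted difference was below 0, with a median of -0.30, where 50% of all tested genes were below 0 and their median was 0.00. The genes vary together across animals, as described further on, so that these 7 are not independent of each other. Without the cohort term TAC3, TACR1 and TACR3 changed sign, to log2 differences of 0.09, 0.18 and 0.21.

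**Figure D2:**
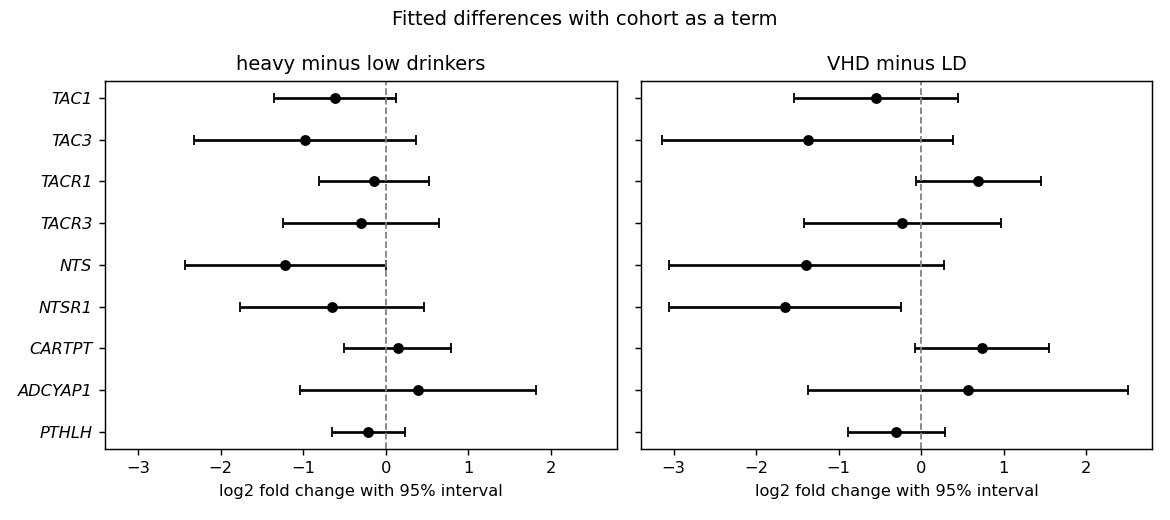
Fitted log2 fold changes (points) with 95% intervals (bars) of the 9 genes from limma with cohort as a term, for heavy minus low drinkers and for VHD minus LD. The interval of NTS ends at 1.004-fold in the first panel, and that of NTSR1 lies below 0 in the second.

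Of the 3 cohorts that held both groups, NTS had a negative difference only in cohort 7a. There the 4 heavy drinkers had 64.9, 122, 134 and 501 normalized reads, against 653, 1092, 1161 and 1690 in the 4 low drinkers. These groups did not overlap, and NTS was the only gene of the set for which they did not (3.55% of tested genes did not overlap in this cohort, 2.04% with the heavy drinkers below and 1.51% with them above). The heavy minus low difference of mean log2 values was -2.83 in cohort 7a, a fold of 0.141 (95% interval 0.0592 to 0.334) with an adjusted p of 0.586 in limma on that cohort alone. In cohort 4 the difference was 0.89, where the single heavy drinker had 1114 and the 7 low drinkers 88.1 to 1256. In cohort 7b the difference was 0.53, with 762 in the single heavy drinker and 155 to 1273 in the 4 low drinkers. limma's F test of whether the difference itself varied between these 3 cohorts gave F = 6.12 for NTS, with p = 0.00690 and an adjusted p of 0.786. It was the only one of the 9 genes with an unadjusted p under 0.05, as were 6.1% of all tested genes, and no gene passed the adjusted threshold in limma (0 by edgeR, 1 by DESeq2).

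Marker levels in cohort 7a are given beside these values. All 8 GABAergic markers had a lower mean log2 value in heavy than in low drinkers there, with summed levels of 7508 to 12133 normalized reads against 11779 to 20644. All 7 cholinergic markers were also lower in the mean, with sums of 54.2 to 16252 against 195 to 10677, and all 7 cortical and basolateral glutamatergic markers were higher in the mean, with 8442 to 35284 against 9951 to 23417. The sums of all 3 lists overlapped between the groups. No defining marker of these lists was at 0 in all libraries, and their part in the NTS difference was not tested. TAC1 in cohort 7a had 219, 258, 574 and 1033 normalized reads in heavy drinkers and 422, 1126, 1409 and 1655 in low drinkers. TAC3 had 45.2, 46.8, 71.6 and 240 in heavy drinkers and 50.2, 193, 547 and 670 in low drinkers. NTSR1 had 15.1, 15.8, 27.1 and 29.6 in heavy drinkers and 14.9, 53.7, 75.7 and 104 in low drinkers. LD replicate 5 was the lowest of the low drinkers in all 3 genes, and the groups overlapped in each.

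**Figure D3:**
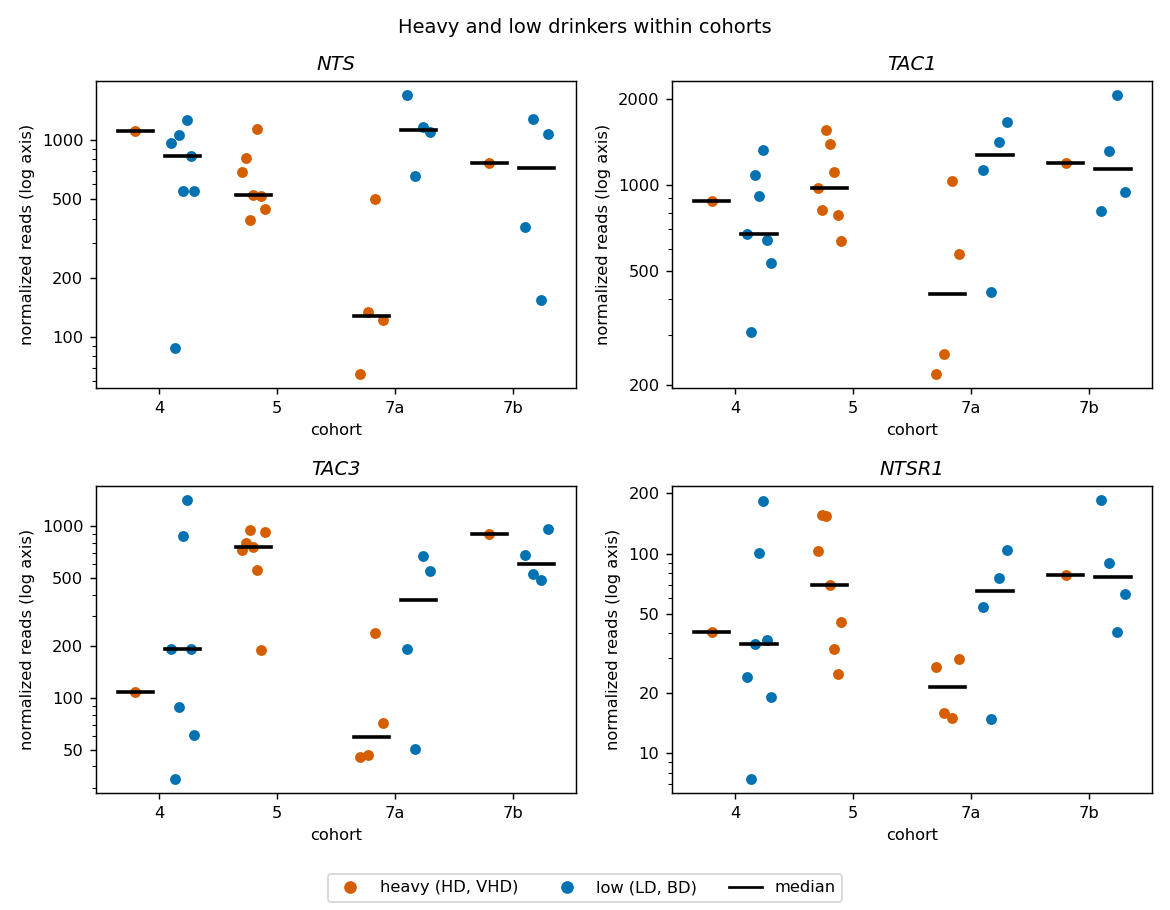
Normalized reads (log axes) of NTS, TAC1, TAC3 and NTSR1 in heavy drinkers and in low drinkers of each cohort, 1 point per animal with a line at the median. In cohort 7a the heavy drinkers have NTS values of 64.9 to 501 and the low drinkers 653 to 1690, while cohort 5 has no low drinker and cohorts 4 and 7b have 1 heavy drinker each.

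Between VHD and LD, NTSR1 had the largest difference. It had 15.1 to 69.7 normalized reads in the 6 VHD animals and 14.9 to 183 in the 10 LD animals, and 5 of 6 VHD animals were below the mean log2 value of LD. The fitted log2 difference was -1.65 ± 0.68 (SE), a fold of 0.319 (95% interval 0.121 to 0.842), with p = 0.0229 and an adjusted p of 0.554 in limma. NTSR1 was the only one of the 9 genes with an unadjusted p under 0.05, as were 8.57% of all tested genes. In 6 of the 9 the fitted difference was below 0, as in 47.5% of all tested genes. No gene passed the adjusted threshold in limma (0 by edgeR, 4 by DESeq2, none of the set). Without a cohort term the log2 difference of NTSR1 was -0.79. Of 8 GABAergic markers 5 had fitted differences below 0 in the same comparison, 4 markers with an unadjusted p under 0.05, and of 9 central amygdala markers 6 were below 0, with a median of -0.43. All 10 striatal markers were also below 0, with a median of -0.28. Above 0 were all 6 myelin markers (3 with an unadjusted p under 0.05 in limma), 7 of 8 hypothalamic and 6 of 7 cholinergic markers. The part of these lists in the NTSR1 difference was not tested.

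TACR1 averaged 531 ± 292 normalized reads in VHD (SD, n = 6) and 272 ± 91.0 in LD (SD, n = 10), a fitted fold of 1.61 (95% interval 0.957 to 2.72) with an adjusted p of 0.619 in limma. CARTPT averaged 699 ± 244 in VHD and 441 ± 233 in LD (SD, n = 6 and 10), a fold of 1.67 (0.952 to 2.92) with an adjusted p of 0.620. NTS had a fold of 0.381 (0.120 to 1.21) and TAC3 of 0.385 (0.114 to 1.30). TAC1 had 0.683 (0.344 to 1.36), TACR3 0.854 (0.373 to 1.96), PTHLH 0.812 (0.541 to 1.22) and ADCYAP1 1.48 (0.387 to 5.65). The 3 VHD animals with the most TACR1 also had the 3 highest cholinergic scores among VHD, 3.89 to 4.20. A score averages the log2 values of a marker list after each gene's mean over the animals has been subtracted. With the striatal, glutamatergic and cholinergic scores as covariates the log2 difference of TACR1 was 0.40 in place of 0.69. The part of the cholinergic markers in the TACR1 difference was not tested.

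HD and BD were each set against LD in the same fit. In HD against LD, NTS had a fold of 0.397 (95% interval 0.153 to 1.03), TAC1 of 0.575 (0.326 to 1.01) and TAC3 of 0.407 (0.149 to 1.11). None of the 9 genes had an unadjusted p under 0.05 in limma, as 3.96% of all tested genes did, and all had an adjusted p of 0.995. The difference was below 0 in 7 of the 9, as in 52.1% of all tested genes. All 8 GABAergic markers (median -0.39) were also below 0 in HD against LD. So were all 7 cholinergic markers (median -2.26, 5 with an unadjusted p under 0.05 in limma). All 7 cortical and basolateral glutamatergic markers were above 0, with a median of 0.66. The part of these lists in the differences between HD and LD was not tested. In BD against LD, TACR3 had a fold of 0.528 (0.271 to 1.03), and all 5 BD animals were below the mean log2 value of LD. Again none of the 9 had an unadjusted p under 0.05 (3.52% of all tested genes), the difference was below 0 in 5 of the 9 (54% of all tested genes), and the adjusted p was 0.9999. Over the categories taken as a number from LD to VHD, NTSR1 had a slope of -0.48 ± 0.22 log2 units per step (SE), with p = 0.0363 and an adjusted p of 0.950 in limma. It was 1 of 9 genes at this level, against 4.85% of all tested genes, and 6 of the 9 slopes were below 0, against 48.9%. The slopes of TAC3, with -0.54 ± 0.27, and NTS, with -0.51 ± 0.25, had unadjusted p-values of 0.0537 and 0.0520. No gene of the table passed the adjusted threshold in these 3 comparisons by limma or edgeR, and DESeq2 called 1 gene in HD against LD, which was not of the set, and 0 in the others. These comparisons share the LD animals.

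The 4 cohorts were compared with category as a term. TAC3 had lowest, median and highest values of 33.6, 150 and 1421 normalized reads in cohort 4, 191, 761 and 944 in cohort 5 and 45.2, 132 and 670 in cohort 7a, and values of 486, 528, 679, 905 and 966 in cohort 7b. The medians of cohorts 5 and 7b stood above the others, and the ranges overlapped. limma's F test gave F = 6.85 with p = 0.00159 and an adjusted p of 0.330, which ranked TAC3 55th of 13022 genes. CARTPT, with F = 4.02 and p = 0.0183, ADCYAP1, with F = 3.68 and p = 0.0252, and NTSR1, with F = 3.51 and p = 0.0298, also had unadjusted p-values under 0.05. These were 4 of the 9 genes, against 9.41% of all tested genes (1225 genes), and no gene passed the adjusted threshold in limma (0 by edgeR, 19 by DESeq2, none of the set). All 4 were correlated with each other across animals, as described further on, so that they are not independent.

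CARTPT had medians of 383, 436 and 774 normalized reads in cohorts 4, 5 and 7a, and 134, 283, 349, 352 and 409 in the animals of cohort 7b, whose highest value lay below the cohort 7a median. ADCYAP1 had medians of 316, 154 and 433 in cohorts 4, 5 and 7a, and 4.91, 49.0, 56.5, 203 and 332 in cohort 7b. The cohorts differed in age at induction, and age and cohort cannot be told apart. The mean GABAergic score was -0.20 in cohort 4, 0.24 in cohort 5, -0.22 in cohort 7a and 0.33 in cohort 7b, higher in the 2 cohorts with the higher TAC3 medians. The mean striatal score was -0.21, 0.13, -0.31 and 0.65. Their part in the cohort differences was not tested.

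Across the 28 animals 20 of 36 pairs of genes were correlated past an adjusted p of 0.05, 12 positively and 8 negatively (Pearson's r of log2 values, permutation test with 100000 resamples, two-sided, adjusted over the 36 pairs). The share among pairs of other genes was not computed, so the count is not shown to be particular to this set. TAC1, TAC3, TACR3, NTS and NTSR1 formed a group in which all 10 pairs passed by Pearson's r, from 0.43 to 0.83. By Spearman's rho TAC3 with NTS (0.313, adjusted permutation p = 0.158) and NTS with NTSR1 (0.361, adjusted permutation p = 0.097) did not pass. The closest pair was TAC3, the neurokinin B precursor, and NTSR1, the neurotensin receptor, with r = 0.829 and Spearman's rho of 0.800. Its permutation p of 1e-05 was the smallest that the resamples can give, and its adjusted p was 0.00012. Without the 2 animals farthest from the median of TAC3 r was 0.805, and within cohorts 4, 5 and 7a it was 0.937, 0.706 and 0.762. TAC3 and its receptor gene TACR3 had r = 0.740 and rho = 0.720 (adjusted permutation p = 0.00012), with r = 0.651 without 2 animals and 0.782, 0.613 and 0.782 within cohorts 4, 5 and 7a. Cohort 7b held 5 animals and gives no value.

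TAC1 was correlated with TACR3 (r = 0.770, rho = 0.677, adjusted permutation p = 0.00012) and with TAC3 (r = 0.750, rho = 0.601, adjusted permutation p = 0.00012). Without the 2 animals farthest from the median of TAC1 these were 0.686 and 0.679. Within cohorts 4, 5 and 7a TAC1 with TACR3 had r = 0.932, 0.0559 and 0.893, and TAC1 with TAC3 had 0.727, 0.271 and 0.938. Both were weakest in cohort 5. TAC1 and NTSR1 had r = 0.628 and rho = 0.606 (adjusted permutation p = 0.00139), with 0.619 without 2 animals and 0.886, 0.381 and 0.694 within cohorts.

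The relations of NTS within this group were weaker without 2 animals. TAC3 and NTS had r = 0.487 and rho = 0.313 (adjusted permutation p = 0.018 for r). Their r was 0.269 without the 2 animals farthest from the median of TAC3, and 0.522, -0.106 and 0.754 within cohorts 4, 5 and 7a. NTS and TACR3 had r = 0.621 and rho = 0.445 (adjusted permutation p = 0.00312), and r was 0.285 without the 2 animals farthest from the median of TACR3, so that the size of r over all animals rested in part on those animals. Within cohorts 4, 5 and 7a it was 0.747, 0.366 and 0.709. TAC1 and NTS had r = 0.603 and rho = 0.493 (adjusted permutation p = 0.00324), with 0.371 without 2 animals and 0.857, -0.0747 and 0.841 within cohorts 4, 5 and 7a. NTS and its receptor gene NTSR1 had the lowest r of the group, 0.431, with rho = 0.361 and an adjusted permutation p of 0.0386, and r was 0.271 without 2 animals and 0.672, -0.147 and 0.535 within cohorts 4, 5 and 7a. BD replicate 2 and HD replicate 5 were the animals at the low end: BD replicate 2 had the lowest TAC3, TACR3 and NTSR1 of all animals, and HD replicate 5 the lowest TAC1 and NTS. These animals also had the lowest GABAergic scores, -0.87 in BD replicate 2 and -1.21 in HD replicate 5, and the highest glutamatergic scores, 2.48 and 2.56. Without HD replicate 5 the count of correlated pairs was 17, and without BD replicate 2 it was 18.

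Pairs of this group with ADCYAP1, CARTPT or PTHLH were negative in 14 of 15 cases, 7 past the threshold. ADCYAP1 and CARTPT were correlated with each other, with r = 0.710 and rho = 0.585 (adjusted permutation p = 0.00012), 0.606 without 2 animals and 0.506, 0.686 and 0.231 within cohorts 4, 5 and 7a. TAC3 and ADCYAP1 had r = -0.699 and rho = -0.779 (adjusted permutation p = 0.00012), -0.663 without 2 animals and -0.924, -0.655 and -0.958 within cohorts. TAC1 and ADCYAP1 had r = -0.647 and rho = -0.666 (adjusted permutation p = 0.00139), -0.592 without 2 animals and -0.668, -0.102 and -0.946 within cohorts. The remaining negative pairs past the threshold were those of TAC3 with CARTPT and PTHLH, of NTSR1 with CARTPT and ADCYAP1, of TACR3 with PTHLH and of TACR1 with PTHLH. Of the 20 pairs past the threshold 14 had the same sign within cohorts 4, 5 and 7a.

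The genes were also correlated with marker scores of cell types and neighbouring regions, none of which contained a gene of the set. Of 108 relations 58 passed an adjusted permutation p of 0.05, and the share for other genes was not computed. TAC1, TAC3, TACR3 and NTS were closest to the GABAergic score (GAD1, GAD2, SLC32A1, LHX6 and DLX genes), with r = 0.877, 0.852, 0.807 and 0.708, and rho = 0.803, 0.735, 0.684 and 0.534. Without the 2 animals farthest from each gene's median these r values were 0.812, 0.822, 0.648 and 0.499. In cohort 5 they were 0.382, 0.487, 0.309 and 0.589, in cohort 4 0.957, 0.815, 0.894 and 0.778, and in cohort 7a 0.930, 0.867, 0.842 and 0.957. The adjusted permutation p was 0.000154 for TAC1 and TAC3, 0.000196 for TACR3 and 0.000669 for NTS. NTSR1 was closest to the central amygdala score (r = 0.743, rho = 0.752, adjusted permutation p = 0.000196), with 0.727 without 2 animals and 0.847, 0.746 and 0.735 within cohorts 4, 5 and 7a.

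ADCYAP1 was closest to the striatal score, with r = -0.865 and rho = -0.776, and nearly as close to the cortical and basolateral glutamatergic score, with r = 0.830 and rho = 0.882 (adjusted permutation p = 0.000154 each). Without the 2 animals farthest from the ADCYAP1 median r was -0.742 for the first and 0.876 for the second. The relation with the glutamatergic score was 0.923, 0.717 and 0.922 within cohorts 4, 5 and 7a, and that with the striatal score -0.907, -0.455 and -0.588. CARTPT had r = -0.714 and rho = -0.552 with the striatal score (adjusted permutation p = 0.000196), -0.597 without 2 animals and -0.513, -0.785 and -0.0974 within cohorts, near 0 in cohort 7a. PTHLH was closest to the glutamatergic score (r = 0.676, rho = 0.640, adjusted permutation p = 0.00042), with 0.632 without 2 animals and 0.531, 0.924 and 0.782 within cohorts.

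Over the 28 animals TACR1 was not correlated past the threshold with the tachykinin precursors, with r = 0.153 for TAC1 and 0.0195 for TAC3. The sign differed between cohorts. Within cohorts 4, 5 and 7a r was -0.392, -0.546 and 0.601 with TAC1, and -0.597, -0.698 and 0.430 with TAC3. The closest score of TACR1 was the basal forebrain cholinergic one (r = 0.814, rho = 0.786, adjusted permutation p = 0.000154), with 0.769 without 2 animals and 0.454, 0.922 and 0.927 within cohorts 4, 5 and 7a. TACR1 had r = 0.790 with the hypothalamic score and 0.659 with the myelin score. The hypothalamic score was highest in VHD replicate 5, at 4.48, an animal with 757 normalized reads of TACR1.

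**Figure D4:**
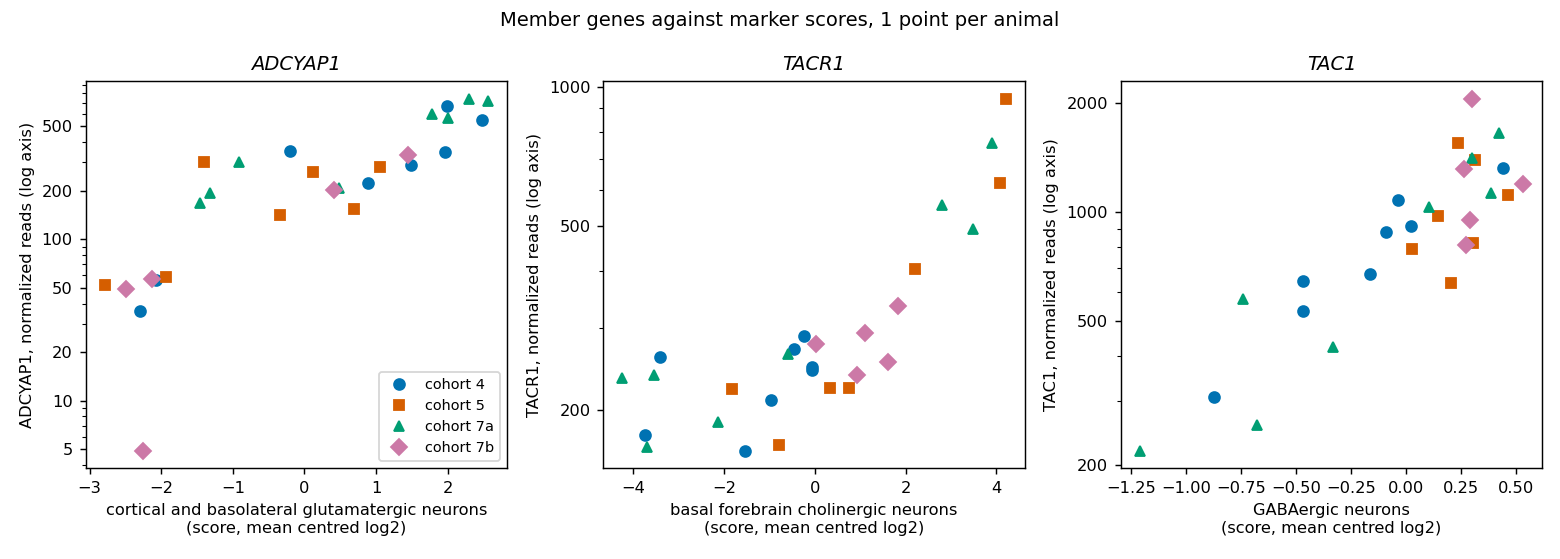
Normalized reads (log axes) of ADCYAP1 against the cortical and basolateral glutamatergic score, of TACR1 against the basal forebrain cholinergic score and of TAC1 against the GABAergic score, 1 point per animal with symbols for the 4 cohorts. The points follow r = 0.830, 0.814 and 0.877, and the lowest ADCYAP1 value, 4.91 in LD replicate 8, lies apart.

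The striatal, glutamatergic and cholinergic scores together fitted 87.8% of the variance of log2 ADCYAP1 and 80.8% of that of TACR1. They fitted 59.2% for CARTPT, 59.0% for TAC1, 57.1% for PTHLH, 52.0% for TAC3, 44.4% for NTSR1, 36.6% for TACR3 and 17.9% for NTS. On the residuals of this fit, an alternative chosen after the data were seen, 13 of 36 pairs passed the adjusted threshold. Of the 10 pairs among TAC1, TAC3, TACR3, NTS and NTSR1 9 passed, with r from 0.43 to 0.73. The exception was TAC1 with NTSR1, at an adjusted permutation p of 0.0534. This group had been picked from the correlations of the same animals. Its genes were closest to the GABAergic or central amygdala scores, which the fit did not remove. The residuals therefore cannot tell shared tissue content from other relations within the group. CARTPT and ADCYAP1 had r = 0.53. TAC1 with ADCYAP1, by contrast, had r = 0.07 and TAC3 with ADCYAP1 -0.18. Of the 15 pairs of that group with CARTPT, ADCYAP1 or PTHLH 7 had been negative past the threshold and 0 were on the residuals. TACR1 had negative residual r values of -0.69 with NTSR1, -0.48 with NTS and -0.48 with TAC3.

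**Figure D5:**
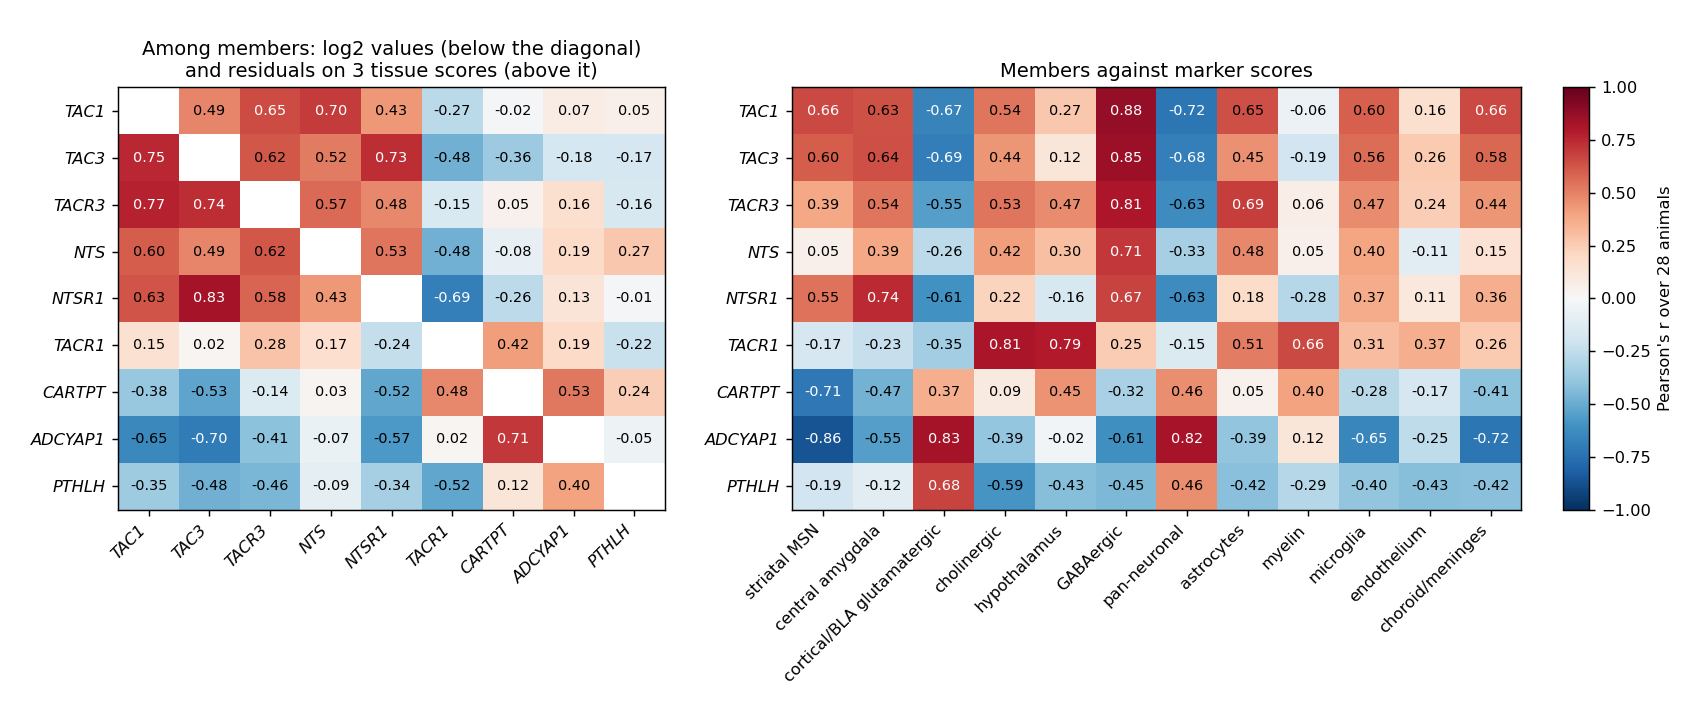
Pearson's r over 28 animals among the 9 genes (left, log2 values below the diagonal and residuals on 3 tissue scores above it) and of each gene with 12 marker scores (right). TAC1, TAC3, TACR3, NTS and NTSR1 are positively correlated on both sides of the diagonal (0.43 to 0.83 and 0.43 to 0.73), and ADCYAP1 runs with the glutamatergic score (0.83) and against the striatal score (-0.86).

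The genes with the most similar pattern over the 28 libraries were taken among 11241 genes with a mean of at least 50 normalized reads, as a description. Among the genes closest to ADCYAP1 were RASSF5 and TBR1, with rho = 0.952 and 0.938. NTSR1 was closest to PNOC, the nociceptin precursor, to SST, the somatostatin precursor, and to COLQ (0.901, 0.877 and 0.876). Among those closest to TAC3 were ISL1 and GPC3 (0.880 and 0.859), and TAC1 was closest to NSG1, UBE3D and DCAF12L2 (0.875, 0.865 and 0.825). TACR1 was closest to PLA2G7, DUSP15 and RBMS3 (0.877, 0.870 and 0.831), and TACR3 to MPP5, GFRA1 and SLC7A14 (0.836, 0.813 and 0.782). CARTPT was closest to NXPH1, KCNC2 and the vesicular glutamate transporter gene SLC17A6 (0.857, 0.845 and 0.841). NTS was closest to EIF2B1, the muscarinic receptor gene CHRM5 and the calcitonin receptor gene CALCR (0.785, 0.783 and 0.781), and PTHLH to COQ9, GMFB and GPM6A (0.808, 0.768 and 0.754).

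The exon table gives a score per exon, the normalized reads rounded to whole numbers. In TAC1 the 593-base exon took a median of 39.7% of the gene's score (36.5% to 43.5% over the animals), and the 24-base exon 11.0% (9.62% to 13.2%). In NTS the 769-base exon took 48.5% (40.9% to 54.5%), and in CARTPT the 541-base exon 69.5% (63.0% to 79.3%). The 3253-base exon of TACR1 took 71.8% (64.1% to 78.3%). In TACR3, with few reads, the 527-base exon took 36.6% and ranged widely (0% to 61.8%). Relative exon use between heavy and low drinkers was tested by limma's diffSplice F test in 9817 genes with at least 3 tested exons, of which 9 passed the adjusted threshold (0.0917%). None of the 8 genes of the set that could be tested did, all with an adjusted p of 1, and none had an unadjusted p under 0.05, as 1.73% of tested genes did. NTSR1 had too few tested exons. The exons of NTS differed by -0.10 to 0.12 log2 units from the rest of the gene, against -1.21 for the whole gene.

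Genes that make, bind, cut or relay these peptides were taken from 4 lists. None of their tested members passed the adjusted threshold in limma in any of the 7 comparisons, with 8 of 12 receptors and relatives, 11 of 13 genes of peptide processing and dense core granules, 8 of 9 peptidases and 11 of 12 coupling and signalling genes tested. In heavy against low drinkers the lists' median log2 differences were 0.02, -0.02, 0.06 and 0.13, against 0.00 over all tested genes. SORT1, which encodes sortilin, a neurotensin-binding sorting receptor, averaged 4859 ± 516 normalized reads in VHD and 4293 ± 425 in LD (SD, n = 6 and 10), a fold of 1.19 (95% interval 1.01 to 1.40) with an adjusted p of 0.583 in limma. In heavy against low drinkers SORT1 had a fold of 1.14 (1.01 to 1.29), and the G protein gene GNAQ one of 1.12 (0.982 to 1.28). PCSK2, a prohormone convertase that cuts peptide precursors, averaged 2203 ± 567.7 in VHD and 1419 ± 612 in LD (SD, n = 6 and 10), a fold of 2.00 (1.18 to 3.40) with an adjusted p of 0.532.

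PTH1R, the receptor gene for PTHrP, averaged 60.5 ± 25.4 normalized reads in HD and 73.6 ± 19.8 in LD (SD, n = 7 and 10), a fold of 0.668 (0.469 to 0.952), and GNAQ 2523 ± 305 in HD and 2266 ± 266 in LD, a fold of 1.15 (1.001 to 1.33). DPP4, a peptidase gene, had a fold of 0.493 (0.240 to 1.01) and ARRB2, an arrestin gene, one of 1.18 (0.987 to 1.40) in BD against LD. Along the categories SORT1 had a slope of 0.08 ± 0.04 and PCSK2 of 0.26 ± 0.13 log2 units per step (SE). Between cohorts the granule protein gene CHGA had F = 7.28 with an adjusted p of 0.330 and VGF, another granule gene, F = 5.13 with an adjusted p of 0.395 in limma. For the difference by cohort GNA11 had F = 2.99 and PTH2R F = 2.20, with adjusted p-values of 0.829 and 0.864.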

How the data were processed

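Per the labels' protocols, stranded libraries depleted of ribosomal RNA were made from a CeA block of each animal. CASAVA, FastQC, STAR 2.3.0e and edgeR appear in the submitters' processing notes, without their order. The build and annotation are not given there. The authors deposited a signal for each gene, its reads scaled to an upper quartile, and a score for each exon, the same rounded to whole numbers. Dividing gene values by the smallest step of their column gave whole reads for 100% of values (tolerance 0.02 reads). Of 30 columns, 2 that the labels do not describe were not used.

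Genes that reached 10 in 5 or more libraries (13022) were compared on log2(value + 1), a scale that understates folds of low genes, with limma 3.58.1 in R 4.3.3 (mean-variance trend, two-sided, Benjamini-Hochberg over all tested genes). Of 112706 exons past the filter, exon tests with limma's diffSplice used the 109212 in genes with at least 3 tested exons. Alternatives on the recovered reads were DESeq2 1.42.0 and the quasi-likelihood test of edgeR 4.0.16. Correlations used SciPy 1.17.1 with permutation p-values adjusted over the pairs (36 among genes, 108 with scores). Other alternatives were larger and smaller pseudocounts, other filters, TMM scaling, no cohort term, tissue scores as covariates, cohort-centred values, cohort 7a alone and leaving out single animals or the 3 shallowest libraries. The fits were tested on simulated data. Animals are the replicates, and floors of 3 reads cover counting error only. Genes, lists and tests were chosen with earlier results of these data known. The text names all genes of the set in every comparison, the 3 most similar genes by rho for each (some are not reported here), pairs past the threshold up to the 10 with the largest r, and the marker score closest to each. From the 4 pathway lists it names 2 genes per comparison, those of smallest p. Marker lists of blood and of thalamic neurons, with under 3 tested genes, were given no score.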

Additional observations from a re-analysis of the deposited data

Results flagged for a closer look

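In 36 groups of 5 to 10 animals (9 genes in 4 categories), 2 held a lowest animal farther from the others than Dixon's 95% critical value, where chance gives about 1 in 20. In LD, NTS was 155 normalized reads in LD replicate 8 (154.55), against 550 to 1273 in the other 9 animals, a gap of 0.601 of the range (critical value 0.466). That animal, of cohort 7b, also had the lowest ADCYAP1 and CARTPT of all animals, 4.91 and 134, the highest TAC1, 2059, and the highest striatal score, 1.95. In BD, ADCYAP1 was 49.0 in BD replicate 5 (49.033), against 302 to 546 in the other 4, a gap of 0.753 of the range (critical value 0.71). Its glutamatergic score was -2.50, and it was the only BD animal of cohort 7b.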

How the results depend on the processing

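No paired analysis was possible because each animal gave 1 library and belonged to 1 drinking category. The counts of genes past the threshold that moved were those of DESeq2 (1 in heavy against low, 4 in VHD against LD, 1 in HD against LD, 19 over cohorts and 1 for the heavy against low difference by cohort, each 0 in limma), of no filter on low values (26 by cohort), and, for exon use (9), of a pseudocount of 8 (4) and of leaving out the 3 shallowest libraries (14). Of 36 pairs of genes, 20 passed on log2 values and 13 on residuals (17 to 22 without single animals, 17 centred on cohort means), and TAC1 with ADCYAP1 reversed to 0.072. Without single animals the counts were 0 to 1 in VHD against LD and in HD against LD (1 without VHD replicate 6 and without HD replicate 5), 0 to 40 over cohorts (40 without LD replicate 2), 0 to 79 by cohort (79 without LD replicate 1, 1 without BD replicate 1) and 6 to 16 for exon use (16 without HD replicate 5 or VHD replicate 6, 15 without BD replicate 1, 14 without HD replicate 7, 6 without BD replicate 4). The causes were not tested.

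No log2 difference below was past the threshold under any setting. Without the cohort term it reversed in heavy against low for TAC3 (0.090), TACR1 (0.18) and TACR3 (0.21), in VHD against LD for TACR3 (0.19), in HD against LD for NTSR1 (0.11) and in the trend for TACR3 (0.043). With tissue scores as covariates it reversed for ADCYAP1 in heavy against low (-0.088), VHD against LD (-0.19) and the trend (-0.0016), and for TACR1 in heavy against low (0.13) and HD against LD (0.10). Leaving out single animals gave ranges across 0 in heavy against low for TACR1 (-0.37 to 0.0015) and TACR3 (-0.56 to 0.075), in HD against LD for CARTPT (-0.0051 to 0.21) and PTHLH (-0.21 to 0.017), in BD against LD for NTS (-1.09 to 0.19) and TACR1 (-0.057 to 0.33), and in the trend for PTHLH (-0.11 to 0.0034). NTS in heavy against low ranged from -1.87 to -0.87. Of the 10 pairs with the largest r, TAC3 with ADCYAP1 and TAC1 with NTSR1 also missed the threshold on residuals, as did pairs outside these 10.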
